A study of Mus musculus with 14 samples.

Results

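Mouse bone marrow stromal clones able to form both bone and fat (osteo-adipogenic, OA) were compared with clones able to form fat only (adipogenic, A), so the comparison asks what osteogenic potential adds to adipogenic potential. The members were chosen by label, as the libraries OA1, OA2 and OA3 and the libraries A1, A2 and A3, which are 6 of the 14 RNA sequencing libraries of the series. The cells were bone marrow stromal cells of adult C57Bl/6 mice, taken from femora and tibiae. All groups carried the irtTA-GBD*-TAg transgene, which expresses the large T antigen of a virus and keeps cells dividing while dexamethasone and doxycycline are present. Clones were obtained by limiting dilution or cell sorting, their differentiation was assayed in 96-well plates, and RNA was taken from cells kept for 3 days without the inducers. Each group has 1 clone from each of 2 mice, numbered 1 and 2, and a pool of further clones of the same animals, numbered 3. P-values here set the difference between groups against the spread of clones and pools within groups, estimated over all 14 libraries. The pools came from the same animals as the clones, so the 3 libraries of a group are not 3 independent animals. A group of 2 clones and 1 pool is a narrow model of a progenitor class. Tripotent libraries (OAC1, OAC2 and OAC3), the adipo-chondrogenic pool AC3 and the osteogenic libraries (O1, O2 and O3) had the same strain, transgene and culture, and serve below as comparisons.

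Marrow stromal progenitors can give rise to osteoblasts, which lay down and mineralize bone matrix, to adipocytes, which store lipid, and to cartilage cells. Osteoblast commitment runs through the transcription factors Runx2 and Sp7 (osterix), followed by type I collagen, alkaline phosphatase and the phosphoproteins that bind mineral. Adipocyte commitment runs through Cebpa and Pparg, followed by genes of lipid uptake and storage such as Lpl and Fabp4.

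Total counts were 20014420 to 24814073 per OA or A library, and 13896 genes passed the filter of at least 1 CPM (counts scaled to library size) in at least 3 of the 14 libraries. OA2 stood apart from the other 5 libraries. Its deviation from the mean of all libraries followed the GC content of genes with a Spearman rho of 0.65 across genes, against 0.08 in OA1, -0.42 in OA3 and -0.19 to 0.03 in the A libraries. The first principal component of the 6 libraries held 51.2% of their variance, with OA2 at 149.8 and the others between -48.3 and -19.2. OA2 also had 1.61 CPM of the proliferation marker Mki67, where OA1 had 116, OA3 86.3 and the A libraries 44.0 to 56.2 CPM. The 25 tested cell cycle genes together were not as far apart. They summed to 1714 CPM in OA2, 3331 in OA1, 2077 in OA3 and 1997 to 2765 CPM in A libraries. Because OA2 stood apart, DESeq2 calls in OA vs A, and list medians whose sign turns, are also given without OA2. The part of GC content and of this library in the results was not tested beyond that. A label check against defining markers gave Runx2 at 56.0 to 168 CPM in OA and 58.5 to 86.5 CPM in A libraries, and Pparg at 10.4 to 27.3 and 28.3 to 55.2 CPM. Thy1, another stromal marker, was below the expression filter, and Adipoq, a marker of mature fat cells, was at 1.70 to 6.86 CPM in OA and 0.611 to 6.69 CPM in A libraries.

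Pitx1 rose in OA libraries, and it was the 1 gene of 13896 (0.0072%) past an FDR of 0.05 in the quasi-likelihood test of edgeR; no gene was lower at that threshold (0%). Without adjustment, edgeR p-values under 0.05 were found for 415 higher genes (2.99%) and 318 lower genes (2.29%), together 5.27%. The Wald test of DESeq2 called 130 genes (0.936%), of which 91 were higher in OA (0.655%) and 39 lower (0.281%), and in simulated counts of this comparison 78 of its 207 calls were unchanged genes. Its calls are therefore used below to choose genes, and a gene is described as called by DESeq2 where edgeR gave no call. When each of the 6 libraries was left out in turn, 22 of the higher calls (0.158%) and 3 of the lower calls (0.0216%) were kept in every fit. The 3 OA libraries lay wholly above the 3 A libraries for 717 genes (5.16%) and wholly below them for 807 genes (5.81%), together 11% of genes, and the smallest two-sided p of an exact permutation test of 3 against 3 is 0.1. The shares over all genes in this paragraph are the background for counts within gene lists below. In RNA from bulk cultures, fewer cells of a type and less RNA per cell cannot be told apart.

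Pitx1 encodes a homeobox transcription factor that gives the hindlimb its identity. Its level was 45.8, 35.8 and 15.7 CPM in OA1, OA2 and OA3, against 0.0822 and 0.0405 CPM in A1 and A2 and 0 in A3. Every OA library was far above every A library, where 3 reads in all were counted. The log2 fold change was 9.47 ± 0.93 (SE; edgeR FDR = 0.0137; DESeq2 adjusted p = 7.35e-17), and the 1931 reads in OA were 794.7 times the 3 reads in A after scaling for library size (95% counting interval 271.5 to 3857). Without OA2 the log2 fold change was 9.39, with an edgeR FDR of 0.0475. The edgeR call was lost without OA1 (FDR 0.0524), A1 (0.125, with a log2 fold change of 10.33), A2 (0.251) or A3 (0.111), while the direction held in each of these fits. Pitx1 was also present in the osteogenic libraries at 106, 40.4 and 24.5 CPM and in the tripotent libraries at 20.5, 25.97 and 31.4 CPM. AC3, whose label does not include osteogenic potential, had 34.2 CPM.

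**Figure D1:**
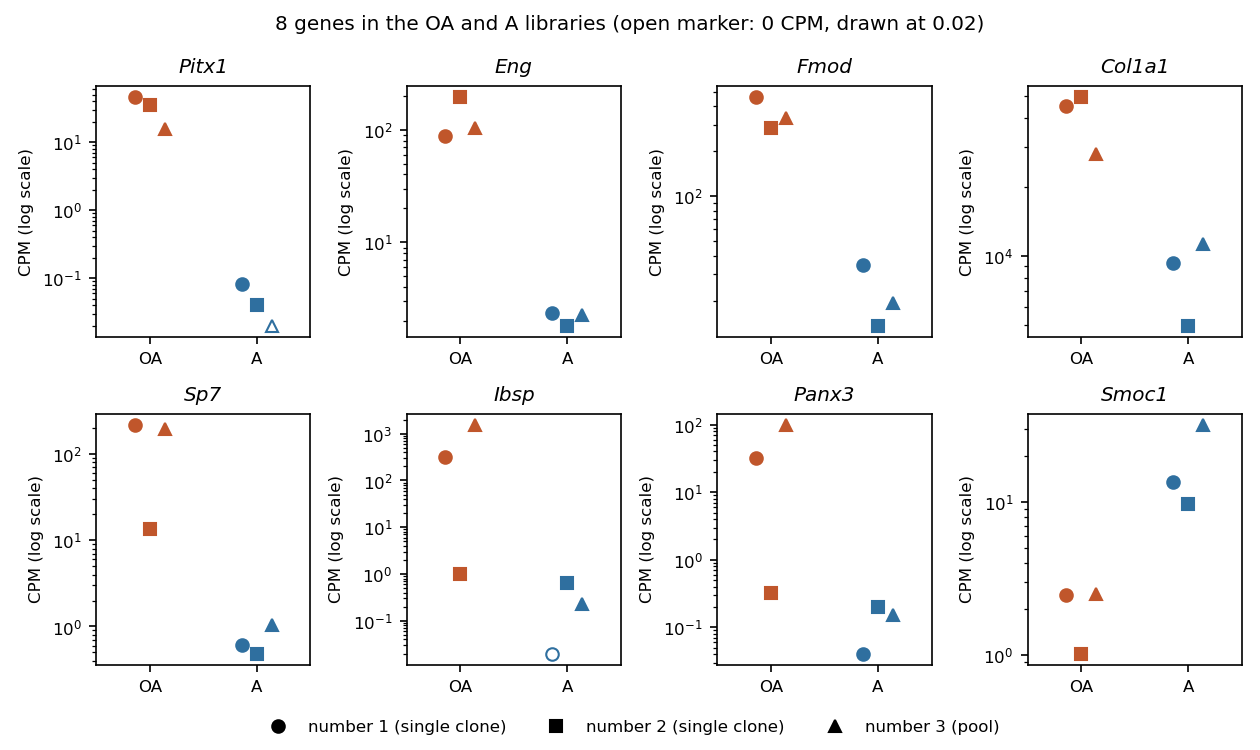
Levels in CPM on a log scale of 8 genes in the 3 OA libraries (left of each panel) and the 3 A libraries (right), 1 point per library, with an open marker for 0 CPM. Pitx1 lies at 15.7 to 45.8 CPM in OA and at 0 to 0.0822 CPM in A, and the bone gene Ibsp lies at 1.02 CPM in OA2 but at 316 and 1520.0 CPM in OA1 and OA3.

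Of 14 tested limb field and patterning factors, Pitx1 was the 1 called by DESeq2, and the median log2 fold change of the list was -0.17, against -0.03 over all 13896 genes and 0.09 for the list without OA2. Prrx2, a homeobox factor of limb mesenchyme, had 128, 92.4 and 67.3 CPM in OA libraries, against 52.1, 4.13 and 26.4 CPM in A libraries. The groups did not overlap, but the log2 fold change of 1.8 ± 0.70 did not pass either test (edgeR FDR = 0.852; DESeq2 adjusted p = 0.276). Among 11 tested 5-prime Hox genes, which pattern the far parts of limb and trunk, none was called by DESeq2 or edgeR, 1 was higher and 0 lower at an unadjusted edgeR p under 0.05, and the median was 0.09. Hoxc11 was at 9.87, 8.31 and 8.92 CPM in OA libraries, against 0.658, 0 and 2.94 CPM in A libraries, all of them lower. On the log2 scale OA minus A was 2.90 ± 1.16 (edgeR FDR = 0.874; DESeq2 adjusted p = 0.211), 2.96 without OA2 and 4.76 without A3. Of 18 tested 3-prime Hox genes, 16 had a lower mean in OA, where 7388 of all 13896 genes did. The list had a median of -0.65 and no call by either tool.

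The next genes are products of the osteoblast, and Ibsp is shown with its promoter as a marker of mineralizing bone that the rule on DESeq2 calls named. That rule kept only genes whose OA and A libraries did not overlap. Ibsp encodes bone sialoprotein, a phosphoprotein that nucleates mineral in bone. The promoter below is the 250 bases before the start of Ibsp on the plus strand, from RefSeq on GRCm38.p6 at chr5:104299037-104299286. The first run of capitals marks the core of a cyclic AMP response element, searched as TGACG, and the second a CCAAT box that reads on the opposite strand.
Ibsp promoter: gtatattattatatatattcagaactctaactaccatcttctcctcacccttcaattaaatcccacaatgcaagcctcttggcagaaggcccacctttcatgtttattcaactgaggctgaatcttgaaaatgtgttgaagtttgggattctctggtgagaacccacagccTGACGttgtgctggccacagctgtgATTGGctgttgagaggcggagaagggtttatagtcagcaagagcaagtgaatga
On either strand CCAAT occurs in 33.8% of 32851 RefSeq mouse promoter windows and TGACG in 17.8%, so neither match sets Ibsp apart. TGTGGT, the core of a Runx site, occurs in 14% of windows and TAATCC, a site bound by homeodomain proteins of the bicoid type, in 6.25%, and neither is in the Ibsp window. Of the genes named by the rule on DESeq2 calls, 12 have windows in the RefSeq table, 19 windows in all. A gene was counted if any of its windows matched, so these gene counts cannot be set against the shares of windows above. CCAAT was found in 7 of the 12 genes (Clec11a, Col1a2, Ibsp, Mthfd2, Nfatc4, Pycr1 and Zwint) and TGACG in 3 (Gcnt2, Ibsp and Zwint). TGTGGT was found for Atp9a and TAATCC for Mest.

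Ibsp was at 316, 1.02 and 1520.0 CPM in OA1, OA2 and OA3, against 0, 0.648 and 0.229 CPM in A1, A2 and A3. OA1 and OA3 were far above the A libraries, and OA2 was barely above A2. The log2 fold change was 11.01 ± 3.11 (edgeR FDR = 0.649; DESeq2 adjusted p = 4.19e-05), and it was 11.57 without OA2, 9.06 without OA3 and 12.28 without A2. Sp7, the osterix transcription factor required for osteoblasts, had 216, 13.5 and 193 CPM in OA libraries, against 0.617, 0.486 and 1.03 CPM in A libraries. OA2 was again the lowest OA library, here still well above every A library. For Sp7 the log2 fold change was 7.61 ± 1.69 (edgeR FDR = 0.649; DESeq2 adjusted p = 1.1e-07) and 8.14 without OA2. Panx3, a channel protein of osteoblasts and cartilage cells, had 31.9, 0.322 and 97.8 CPM in OA libraries, against 0.0411, 0.203 and 0.153 CPM in A libraries. The estimate was a log2 fold change of 8.29 ± 2.52 (edgeR FDR = 0.676; DESeq2 adjusted p = 0.000143), 8.86 without OA2 and 6.87 without OA3. Clec11a, which encodes the secreted bone growth factor osteolectin, was at 35.6, 6.33 and 55.2 CPM in OA libraries, against 1.11, 1.58 and 0.916 CPM in A libraries. It too was lowest in OA2, and its log2 fold change was 4.75 ± 0.92 (edgeR FDR = 0.382; DESeq2 adjusted p = 3.63e-06), 5.22 without OA2 and 4.12 without OA3.

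Of 11 tested osteoblast transcription factors, DESeq2 called 3 higher (Sp7, Dlx3 and Dlx5) and 0 lower, and the median log2 fold change was 0.59 with and 0.91 without OA2. DESeq2 called 0.655% of all genes higher and 0.281% lower. Dlx3, a homeobox factor of osteoblasts, had 5.71, 0.429 and 12.2 CPM in OA libraries, against 0.123, 0.284 and 0.0382 CPM in A libraries. Dlx5, a related factor, was even across the OA libraries, at 27.6, 22.4 and 29.7 CPM, against 5.02, 1.66 and 5.57 CPM in A libraries. For Dlx5 the log2 fold change was 2.70 ± 0.67 (DESeq2 adjusted p = 0.0076; 2.80 without OA2), a call that was lost without OA1 (0.0604) or A2 (0.0704). For Dlx3 it was 5.32 ± 1.30 (DESeq2 adjusted p = 0.000814), 5.85 without OA2, 4.33 without OA3 and 6.16 without A2. Runx2, the factor that stands above Sp7, did not separate the groups, at 168, 56.0 and 121 CPM in OA libraries and 86.5, 84.0 and 58.5 CPM in A libraries. edgeR estimated a log2 fold change of 0.59 ± 0.48 (edgeR FDR = 1) and 0.91 without OA2. Msx2, a homeobox factor of skeletal precursors, was lower in all OA libraries, at 9.33 to 10.4 CPM against 13.5 to 21.7 CPM, with a log2 fold change of -0.78 ± 0.30 (DESeq2 adjusted p = 0.35; -0.74 without OA2).

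Among 12 tested bone matrix genes DESeq2 called 4 higher (Ibsp, Tnn, Col1a1 and Col1a2) and 0 lower, 7 had all OA libraries above all A libraries and 0 the reverse, and the median log2 fold change was 1.94 (1.93 without OA2). Over all genes DESeq2 called 0.655% higher and 0.281% lower, and 5.16% had all OA libraries above all A libraries and 5.81% the reverse. Tnn encodes tenascin-W, a matrix glycoprotein of bone. It was at 229, 3.11 and 146 CPM in OA libraries, against 0.822, 3.65 and 1.30 CPM in A libraries, so that OA2 lay within the A range. This gave a log2 fold change of 6.03 ± 1.86 (DESeq2 adjusted p = 0.00195), with 6.59 without OA2, 6.88 without A2 and 5.27 without OA1, where the call was lost (0.0627). Bglap, the osteocalcin gene of mature osteoblasts, was low throughout, at 1.35, 0.965 and 5.52 CPM in OA libraries and 0.411, 0.324 and 0.114 CPM in A libraries. Its log2 fold change was 3.19 ± 1.24 (DESeq2 adjusted p = 0.182; 3.56 without OA2). Sparc, an abundant matrix protein, had 6783, 10953 and 6919 CPM in OA libraries, against 5399, 3909 and 4094 CPM in A libraries (log2 fold change 0.88 ± 0.30; DESeq2 adjusted p = 0.201; 0.61 without OA2). Ifitm5, a membrane protein of osteoblasts, reached 14.4 CPM in OA3 and was at 0.551 and 0.322 CPM in OA1 and OA2, against 0.229 to 0.288 CPM in A libraries. Without OA2, Ifitm5 passed DESeq2 at an adjusted p of 0.0108, with a log2 fold change of 4.84.

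Of 12 tested mineralization enzymes, transporters and channels DESeq2 called 3 higher (Alpl, Slc13a5 and Panx3) and 0 lower, with a median log2 fold change of 1.35 (1.597 without OA2). Among all genes 0.655% were called higher by DESeq2 and 0.281% lower. Alpl encodes the tissue-nonspecific alkaline phosphatase that frees phosphate for mineral. It was at 1112, 223 and 1438 CPM in OA libraries, against 146, 70.1 and 45.6 CPM in A libraries, without overlap. The log2 fold change of 3.40 ± 1.11 (DESeq2 adjusted p = 0.0352) was 3.85 without OA2 and 4.0 without A1, and the call was lost without OA1 (0.204), OA3 (0.171), A2 (0.213) or A3 (0.196). Slc13a5, a citrate transporter, had 72.1, 0.375 and 203 CPM in OA libraries, against 0, 0 and 0.114 CPM in A libraries. The 5970 reads in OA and 3 reads in A stood in a scaled ratio of 2457 (95% counting interval 840.3 to 11920). DESeq2 called it at an adjusted p of 0.00207 but gave no adjusted p without OA1, OA2 or OA3. Phospho1, a phosphatase of matrix vesicles, and Smpd3, a sphingomyelinase needed for mineralization, overlapped between the groups. Phospho1 was at 116, 21.4 and 209 CPM in OA libraries and 29.0, 26.5 and 13.7 CPM in A libraries (log2 fold change 2.33 ± 0.97; DESeq2 adjusted p = 0.266; 2.80 without OA2), and Smpd3 at 206, 32.5 and 221 CPM and 60.1, 16.9 and 47.9 CPM (1.88 ± 0.76; 0.298). Without OA2, Smpd3 passed DESeq2 at an adjusted p of 0.0419, with a log2 fold change of 2.35. Enpp1, which makes the mineralization inhibitor pyrophosphate, was lower in each OA library, at 7.07, 13.0 and 24.4 CPM against 29.7, 42.2 and 43.0 CPM in A libraries, but did not pass (log2 fold change -1.37 ± 0.56; DESeq2 adjusted p = 0.43; -1.30 without OA2).

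The parathyroid hormone receptor gene Pth1r, through which that hormone acts on osteoblasts, had 149, 18.2 and 139.5 CPM in OA libraries, against 3.21, 4.74 and 1.14 CPM in A libraries. The groups did not overlap. In log2 terms the difference was 5.07 ± 1.62 (DESeq2 adjusted p = 0.00793) and 5.56 without OA2, and the call was lost without OA1 (0.0948) or A3 (0.0751). OA2 was the lowest OA library for 42 of the 91 genes called higher by DESeq2 (46.2%) and for 43.1% of all genes. In size the gap differed: of the 91, 15 (16.5%) were at least 10 times lower in OA2 than in the lower of OA1 and OA3, where 978 of all 13896 genes (7.04%) were. These 15 included Ibsp, Sp7, Panx3, Slc13a5, Dlx3, Tnn and Ihh. The limit of 10 was set after the values were seen, so these shares are a description. Another 62 of the 91 (68.1%) were within 2 times of the lower of OA1 and OA3, or above it, in OA2. This last share was not counted over all genes, so it has no background.

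**Figure D2:**
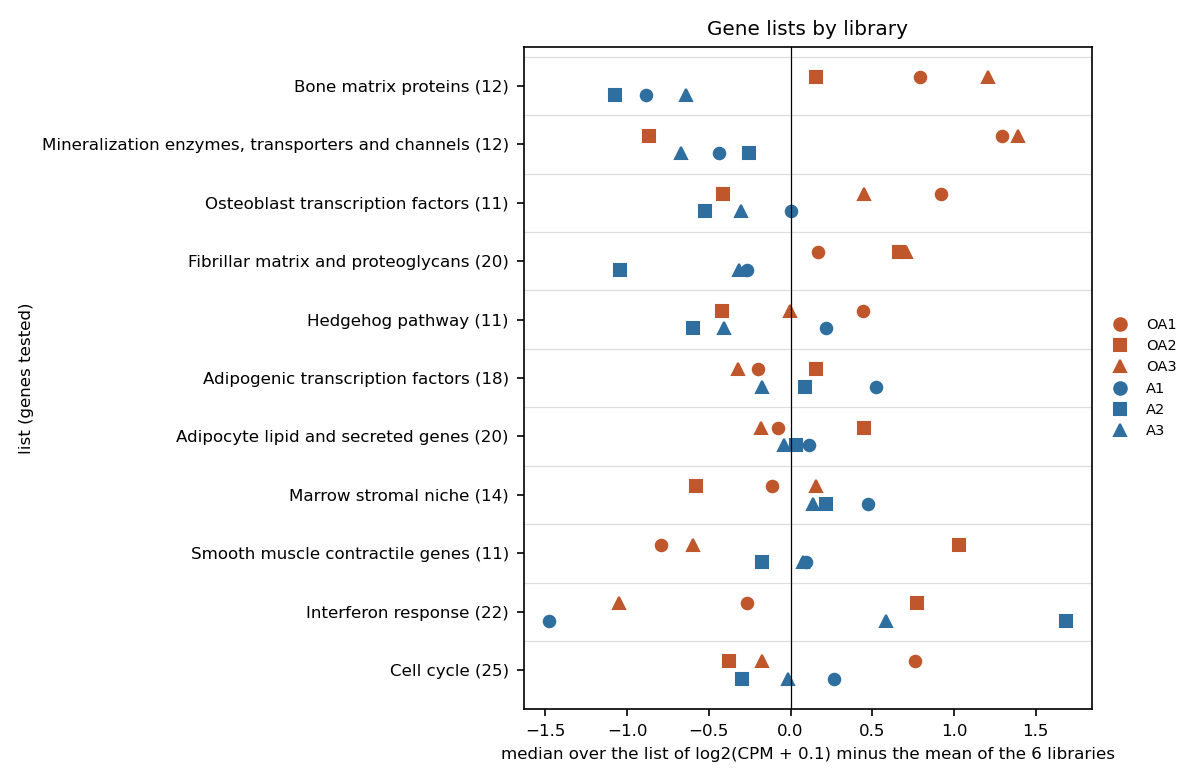
Median over each gene list of log2(CPM + 0.1) minus the mean of the 6 libraries, by library, with OA libraries listed before A libraries and the number of tested genes beside each list. For mineralization genes OA1 and OA3 are at 1.29 and 1.39 and OA2 at -0.87, while for fibrillar matrix OA1, OA2 and OA3 are at 0.17, 0.66 and 0.70, above the A libraries at -1.04 to -0.27.

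Of the genes named by the rule, Col1a1, Col1a2, Fmod and Gpc1 encode collagen chains and proteoglycans. OA2 was the highest OA library for both collagen chains and the lowest for Fmod and Gpc1, above every A library in each case, as the rule required. Col1a1, the main chain of type I collagen, had 45178, 49113 and 27724 CPM in OA libraries, against 9345, 4961 and 11243 CPM in A libraries. Col1a2, its partner chain, had 23792, 25474 and 21225 CPM in OA libraries, against 7551, 6942 and 8751 CPM in A libraries. All OA libraries were above all A libraries for each chain, again as the rule required. The log2 fold changes were 2.26 ± 0.39 for Col1a1 (edgeR FDR = 0.374; DESeq2 adjusted p = 3.63e-06) and 1.6 ± 0.31 for Col1a2 (edgeR FDR = 0.382; DESeq2 adjusted p = 9.23e-05), and without OA2 they were 2.09 and 1.53. Fmod encodes fibromodulin, a small proteoglycan that binds collagen fibrils. It was at 457, 287 and 334 CPM in OA libraries, against 34.7, 13.6 and 19.4 CPM in A libraries, with a mean of 359 ± 87.7 against 22.6 ± 10.9 CPM (SD, n = 3 each). Its log2 fold change of 3.99 ± 0.52 was next to Pitx1 in DESeq2 adjusted p (5.91e-13), with an edgeR FDR of 0.103 and a log2 fold change of 4.12 without OA2. Gpc1, the heparan sulfate proteoglycan glypican 1, had 1131, 546 and 607 CPM in OA libraries, against 164, 108 and 122 CPM in A libraries (log2 fold change 2.54 ± 0.43; edgeR FDR = 0.374; DESeq2 adjusted p = 4.1e-06; 2.72 without OA2).

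Of 20 tested fibrillar matrix and proteoglycan genes DESeq2 called 4 higher and 0 lower, 7 had all OA above all A libraries and 0 the reverse, and the median log2 fold change was 1.08 (0.93 without OA2). The shares without overlap over all genes were 5.16% above and 5.81% below, and DESeq2 called 0.655% of all genes higher and 0.281% lower. The called genes beside Fmod were Col3a1, Col12a1 and Col6a3, chains of fibrillar, fibril-associated and beaded-filament collagens. Col3a1 was at 2282, 5597 and 2155 CPM in OA libraries, against 676, 301 and 464 CPM in A libraries, and OA2 was the highest. Its log2 fold change of 2.80 ± 0.71 (DESeq2 adjusted p = 0.00793) was 2.20 without OA2, where the call was lost (0.111), and the call was also lost without A2 (0.0986) or A3 (0.0557). Col12a1 had 1942, 2791 and 3116 CPM in OA libraries, against 1305, 652 and 1217 CPM in A libraries. On the log2 scale OA minus A was 1.31 ± 0.31 (DESeq2 adjusted p = 0.00793), and its call was lost without OA2 (0.055) or OA3 (0.0633). Col6a3, at 2881, 6099.9 and 2621 CPM in OA libraries against 1102, 1911 and 1215 CPM in A libraries, had a log2 fold change of 1.46 ± 0.37 (DESeq2 adjusted p = 0.0255). That fold change was 0.95 without OA2, where the call was lost (0.18), as it was without A1 (0.215) or A3 (0.162). Bmp1, which cleaves the ends of procollagens and is also counted among the ligand genes, was at 597, 512 and 480.0 CPM in OA libraries, against 278, 365 and 269 CPM in A libraries, and its log2 fold change of 0.80 ± 0.24 missed the threshold (DESeq2 adjusted p = 0.109).

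Eng encodes endoglin, a co-receptor for ligands of the TGF-beta and BMP family that is used as a surface marker of stromal cells. It was at 88.6, 193 and 103 CPM in OA1, OA2 and OA3, against 2.39, 1.82 and 2.25 CPM in A1, A2 and A3. The groups were wide apart, with a mean of 128 ± 56.4 in OA and 2.15 ± 0.293 CPM in A libraries (SD, n = 3 each). The log2 fold change was 5.89 ± 1.31 (edgeR FDR = 0.649; DESeq2 adjusted p = 4.07e-06) and 5.46 without OA2. Among all libraries Eng did not follow the osteogenic label, since O1, O2 and O3 had 2.99, 1.99 and 27.2 CPM, OAC1 had 6.80 CPM and AC3 had 51.1 CPM. Of 18 tested stromal surface markers DESeq2 called 3 higher (Eng, Cspg4 and Cd200) and 0 lower, with a median of 0.36 (0.19 without OA2). The DESeq2 shares over all genes were 0.655% higher and 0.281% lower. Cspg4, the NG2 proteoglycan of pericytes, was at 10.4, 1.39 and 3.68 CPM in OA libraries, against 0.452, 0.203 and 0.267 CPM in A libraries. The estimate was a log2 fold change of 4.04 ± 1.12 (DESeq2 adjusted p = 0.00975), 4.49 without OA2 and 3.03 without OA1, and the call was lost without OA1 (0.226), A2 (0.0929) or A3 (0.0684). Cd200, an immune-regulatory membrane protein also used to mark skeletal stem cells, was at 5.46, 6.86 and 22.1 CPM in OA libraries, against 0.164, 0.689 and 1.41 CPM in A libraries. edgeR estimated a log2 fold change of 3.91 ± 1.17 (DESeq2 adjusted p = 0.015), 4.17 without OA2, 3.02 without OA3 and 4.73 without A3, and the call was lost without OA3 (0.163), A1 (0.116) or A2 (0.106).

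The rule named 5 further genes that were higher in OA. Mest, an imprinted gene expressed from the paternal copy, was at 136, 217 and 103 CPM in OA libraries, against 29.8, 1.62 and 8.55 CPM in A libraries. Nfatc4, a transcription factor controlled by calcineurin, had 214, 94.2 and 77.4 CPM in OA libraries, against 16.5, 6.48 and 11.2 CPM in A libraries. Atp9a, a membrane ATPase of the family that moves phospholipids, had 25.2, 46.7 and 10.9 CPM in OA libraries, against 1.32, 0.770 and 2.14 CPM in A libraries. The rule required that the groups not overlap, so the lack of overlap in these 3 genes is no further result. For Mest the log2 fold change was 3.51 ± 0.86 (edgeR FDR = 0.649; DESeq2 adjusted p = 0.00205), 3.16 without OA2 and 4.90 without A1. For Nfatc4 it was 3.49 ± 0.68 (edgeR FDR = 0.382; DESeq2 adjusted p = 2.66e-05) and 3.67 without OA2. For Atp9a it was 4.29 ± 1.01 (edgeR FDR = 0.649; DESeq2 adjusted p = 0.000363) and 3.67 without OA2, its highest library.

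The other 2 genes encode mitochondrial or biosynthetic enzymes. Mthfd2, a mitochondrial enzyme of folate metabolism, was at 139.8, 137 and 169 CPM in OA libraries, against 61.6, 56.8 and 56.5 CPM in A libraries. Pycr1, which completes the synthesis of proline, an abundant residue of collagen, had 53.5, 84.4 and 64.3 CPM in OA libraries, against 23.2, 30.03 and 26.7 CPM in A libraries. Lack of overlap was again required by the rule for both genes. The log2 fold changes were 1.35 ± 0.23 for Mthfd2 (edgeR FDR = 0.374; DESeq2 adjusted p = 2.69e-05; 1.39 without OA2) and 1.34 ± 0.24 for Pycr1 (edgeR FDR = 0.382; DESeq2 adjusted p = 0.000272; 1.13 without OA2). A further 4 DESeq2 calls were named after their values were seen, as single genes and from no fixed list. They were Slc7a5, a transporter of large neutral amino acids (log2 fold change 1.43 ± 0.34; DESeq2 adjusted p = 0.0183), Bcat1, which transfers the amino group of branched-chain amino acids (1.38 ± 0.36; 0.0373), Gpt2, a mitochondrial alanine transaminase (1.31 ± 0.30; 0.011), and Trib3, a target of the amino acid stress response (1.99 ± 0.47; 0.00975). Trib3 had 82.5, 115 and 74.3 CPM in OA libraries, against 13.2, 39.8 and 15.5 CPM in A libraries. None of these 4 calls withstood leaving out every library in turn; the DESeq2 adjusted p without OA2 was 0.126 for Slc7a5, 0.144 for Bcat1, 0.0479 for Gpt2 and 0.0868 for Trib3. Gpt2 lost its call without OA3 (0.0839) or A1 (0.116), Slc7a5 without each of the 6 libraries (0.0528 to 0.139), Bcat1 without each but A2 (0.113 to 0.196), and Trib3 without OA1, OA2, A1 or A3 (0.0506 to 0.101).

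**Figure D3:**
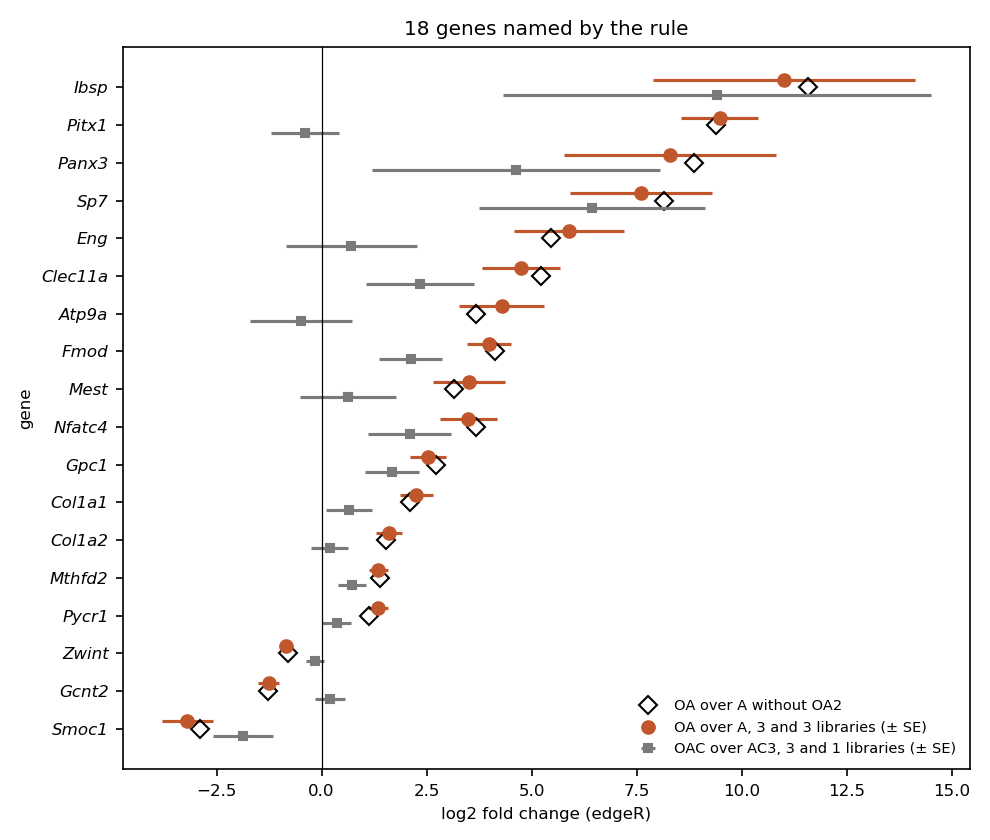
Log2 fold changes from edgeR for the 18 genes named by the rule on DESeq2 calls. Drawn are OA over A with SE bars, OA over A without OA2, and OAC over AC3 with SE bars. In OA over A, Pitx1 stands at 9.47 with an SE of 0.93 and Ibsp at 11.01 with an SE of 3.11. Smoc1, Gcnt2 and Zwint are below 0 there, at -3.20, -1.26 and -0.85.

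Smoc1, Gcnt2 and Zwint were lower in OA and are all the lower genes that the rule found. The rule kept only genes without overlap between the groups, so their lack of overlap is no further result. Smoc1 encodes a secreted calcium-binding matrix protein that modulates BMP signalling. It was at 2.46, 1.02 and 2.51 CPM in OA libraries, against 13.6, 9.73 and 31.9 CPM in A libraries, and the groups did not overlap. The log2 fold change was -3.20 ± 0.61 (edgeR FDR = 0.382; DESeq2 adjusted p = 4.19e-05), -2.89 without OA2 and -2.54 without A3. Gcnt2 encodes an enzyme that branches sugar chains. It was at 9.97, 9.97 and 9.46 CPM in OA libraries, against 24.4, 23.2 and 22.9 CPM in A libraries, without overlap. This gave a log2 fold change of -1.26 ± 0.26 (edgeR FDR = 0.495; DESeq2 adjusted p = 0.000301) and -1.28 without OA2. Zwint, a kinetochore protein, had 90.5, 86.5 and 104 CPM in OA libraries, against 145, 181 and 179.8 CPM in A libraries. Its log2 fold change was -0.85 ± 0.16 (edgeR FDR = 0.382; DESeq2 adjusted p = 6.12e-06) and -0.81 without OA2. Among the 25 tested cell cycle genes 0 were called by either tool and 0 were at an unadjusted edgeR p under 0.05 in either direction. Their median was 0.25 (0.51 without OA2, -0.28 without OA1), and in simulated counts edgeR found 1 and DESeq2 8 of 50 genes changed by 2-fold, so a change of the size seen for Zwint was mostly not detectable.

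Among 11 tested BMP and TGF-beta antagonists in the extracellular space, DESeq2 called Smoc1 and Grem1 lower and none higher, with a median of 0.01 (-0.50 without OA2). Grem1, the BMP antagonist gremlin 1, was at 3.56, 0.643 and 1.75 CPM in OA libraries, against 45.3, 127 and 24.3 CPM in A libraries, without overlap. In log2 terms the difference was -5.04 ± 1.61 (DESeq2 adjusted p = 0.0103), -4.64 without OA2, -5.76 without OA1 and -4.13 without A2, and the call was lost without OA2 (0.0597) or A2 (0.222). DESeq2 gave it no adjusted p without A1 or A3. Of 13 tested receptors and co-receptors DESeq2 called Eng higher and none lower, and the median was -0.38 (0.15 without OA2). Tgfbr3, the co-receptor betaglycan, was lower in every OA library, at 85.9, 102 and 99.2 CPM against 260.1, 271 and 132 CPM in A libraries (log2 fold change -1.21 ± 0.31; DESeq2 adjusted p = 0.0662; -1.27 without OA2). Of 15 tested ligands none was called by edgeR or DESeq2, while 4 were higher and 2 lower at an unadjusted edgeR p under 0.05, and the median was 0.24 (-0.08 without OA2, -0.01 without OA1). At that unadjusted p 2.99% of all genes were higher and 2.29% lower. Bmp4, a ligand that drives osteoblast differentiation, was at 78.8, 128 and 108 CPM in OA libraries, against 44.5, 45.7 and 50.9 CPM in A libraries. Tgfb1 had 190.1, 125 and 88.2 CPM in OA libraries, against 86.7, 53.2 and 76.2 CPM in A libraries. Neither overlapped and neither passed, with log2 fold changes of 1.16 ± 0.42 for Bmp4 (DESeq2 adjusted p = 0.258) and 0.90 ± 0.31 for Tgfb1 (0.242), and 0.98 and 0.94 without OA2. The 12 feedback targets of the pathway, which read out its activity, had no call by either tool, 0 higher and 1 lower at an unadjusted edgeR p under 0.05, and a median of -0.34.

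Hedgehog pathway genes had a median of 0.38 over 11 tested members, with Ihh the 1 DESeq2 call. Ihh, the ligand indian hedgehog, was low, at 1.25, 0.0536 and 4.26 CPM in OA libraries and 0.0411, 0.0405 and 0.0763 CPM in A libraries, so OA2 fell within the A range. Its call (log2 fold change 5.00 ± 1.59; DESeq2 adjusted p = 0.0489; 5.55 without OA2) was lost without OA1 (0.125), OA3 (0.333, at 3.50), A1 (0.215), A2 (0.223) or A3 (0.14). Ptch1, the receptor and a target of the pathway, was at 89.3, 34.9 and 124 CPM in OA libraries, against 34.1, 24.5 and 31.8 CPM in A libraries. Gli1, a transcription factor and target, was at 2.41, 4.66 and 15.4 CPM in OA libraries, against 0.288, 1.46 and 1.45 CPM in A libraries. The groups did not overlap for either gene, with log2 fold changes of 1.46 ± 0.43 for Ptch1 (DESeq2 adjusted p = 0.0688) and 2.81 ± 0.89 for Gli1 (0.0563). Without OA2, Ptch1 passed DESeq2 with an adjusted p of 0.000143 and a log2 fold change of 1.82. Wnt feedback targets (12 tested, median 0.27) and secreted Wnt antagonists (8 tested, median 0.03, and -0.21 without OA2) had no call by edgeR or DESeq2 and 0 members at an unadjusted edgeR p under 0.05. The 12 retinoic acid genes had a median of 0.46 and the 9 IGF genes a median of 0.18 (-0.0032 without OA2), again without a call by either tool, with 2 and 1 members higher and 0 lower at an unadjusted edgeR p under 0.05. At this p 2.99% of all genes were higher and 2.29% lower. Of 11 tested cartilage genes DESeq2 called Comp higher and Sox5 lower. Comp, a cartilage matrix protein, was at 3.36, 5.58 and 11.3 CPM in OA libraries, against 1.89, 1.58 and 1.11 CPM in A libraries, and Sox5, a partner of Sox9, at 2.66, 0.643 and 2.15 CPM against 10.98, 9.36 and 6.64 CPM. The log2 fold changes were 2.14 ± 0.61 for Comp (DESeq2 adjusted p = 0.0396; 2.24 without OA2) and -2.30 ± 0.59 for Sox5 (0.0129; -1.91 without OA2), and the call of Comp was lost without each of OA2, OA3, A1, A2 and A3 (0.0892 to 0.256; 1.55 without OA3) and that of Sox5 without OA2, A1 or A2 (0.0519 to 0.143). Sox9, the master factor of cartilage, overlapped, at 11.7, 24.8 and 23.9 CPM in OA libraries and 6.17, 18.7 and 13.0 CPM in A libraries, and Col2a1 changed sign without OA2 (0.46 ± 1.17, and -0.86 without it).

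Of 18 tested adipogenic transcription factors and 20 tested adipocyte lipid and secreted genes, none was called by edgeR or DESeq2, 1 was higher and 1 lower in each list at an unadjusted edgeR p under 0.05, and the medians were -0.28 and 0.03 (-0.37 and -0.09 without OA2). In the first list 1 gene had all OA libraries above all A libraries and 3 the reverse, and in the second 1 and 2. Over all 13896 genes the shares were 5.16% above and 5.81% below. Pparg, the central factor of fat cell differentiation, was at 10.4, 27.3 and 15.9 CPM in OA libraries, against 34.4, 55.2 and 28.3 CPM in A libraries. On the log2 scale OA minus A was -1.14 ± 0.47 (DESeq2 adjusted p = 0.495), -1.60 without OA2 and -0.21 with a correction for GC content. Cebpa, its partner, overlapped between the groups, at 39.6, 95.2 and 31.6 CPM in OA libraries and 90.02, 83.1 and 47.2 CPM in A libraries (-0.41 ± 0.56; DESeq2 adjusted p = 1; -1.06 without OA2). Lpl, the lipase that frees fatty acids for uptake, was at 46.2, 41.3 and 56.1 CPM in OA libraries, against 196, 246 and 114 CPM in A libraries. It did not overlap, but the log2 fold change of -1.95 ± 0.90 missed the threshold (DESeq2 adjusted p = 0.508; -1.87 without OA2). Angptl4, an inhibitor of that lipase, was at 3.71, 1.45 and 2.24 CPM in OA libraries, against 30.8, 3.93 and 15.6 CPM in A libraries, and was just short of a call (-2.76 ± 0.83; DESeq2 adjusted p = 0.0516; -2.50 and 0.217 without OA2). Fabp5, a fatty acid binding protein, had the opposite arrangement, with 154, 52.5 and 192 CPM in OA libraries and 14.2, 24.5 and 50.8 CPM in A libraries (2.15 ± 0.71; DESeq2 adjusted p = 0.0982; 0.0359 without OA2). Fabp4, the fat cell member of the same family, had 34.1, 4.50 and 35.6 CPM in OA libraries and 38.2, 19.8 and 45.9 CPM in A libraries.

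The OA libraries were also set beside the O libraries, which share the osteogenic label and lack the adipogenic one; this comparison uses the same OA libraries as OA vs A, so the values are given side by side only. In OA vs O edgeR called 0 genes, 755 (5.43%) had an unadjusted p under 0.05 by edgeR, and DESeq2 called 42 (0.302%). Plin4, a coat protein of lipid droplets that was picked out after its values were seen, was at 99.0, 427 and 186 CPM in OA libraries and at 5.73, 5.56 and 31.2 CPM in O libraries, with 542, 303 and 354 CPM in A libraries. The estimate was a log2 fold change of 4.06 ± 0.80 in OA vs O (DESeq2 adjusted p = 4.81e-05) and -0.75 ± 0.71 in OA vs A (DESeq2 adjusted p = 1). Lpl was at 4.84, 0.244 and 11.4 CPM in O libraries, below every OA library, with a log2 fold change of 3.12 ± 0.95 in OA vs O (DESeq2 adjusted p = 0.0694). Cxcl12, the chemokine by which marrow stroma retains blood stem cells, was at 1487, 1999 and 1643 CPM in OA libraries and 643, 399.6 and 646 CPM in O libraries, against 4833, 5131 and 2413 CPM in A libraries. The OA libraries lay between the other groups without overlap, with log2 fold changes of -1.27 ± 0.35 in OA vs A (DESeq2 adjusted p = 0.071) and 1.6 ± 0.35 in OA vs O (DESeq2 adjusted p = 0.0159). Smoc1 was at 9.17, 9.01 and 7.09 CPM in O libraries, so that OA libraries were the lowest of the 3 groups (-2.07 ± 0.58 in OA vs O; DESeq2 adjusted p = 0.0661). Atp9a was at 0.509, 1.87 and 3.64 CPM in O libraries and was called higher in OA vs O by DESeq2 (3.77 ± 0.98; adjusted p = 0.0116).

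Of 14 tested genes of the marrow stromal niche, DESeq2 called Grem1 lower and none higher, and the median was -0.50 (-0.29 without OA2). In this list 4 genes had all OA libraries below all A libraries and 1 the reverse, where 5.81% and 5.16% of all genes did. Vcam1, the adhesion molecule that holds blood cells in marrow, was at 41.2, 59.8 and 43.3 CPM in OA libraries, against 83.7, 73.1 and 92.8 CPM in A libraries. The log2 fold change of -0.79 ± 0.24 (DESeq2 adjusted p = 0.23) turned to 0.37 with the correction for GC content, so no direction can be given for Vcam1. Foxc1, a transcription factor that maintains niche cells, was at 48.4, 35.2 and 36.7 CPM in OA libraries, against 67.2, 62.6 and 49.2 CPM in A libraries (-0.57 ± 0.22; DESeq2 adjusted p = 0.389). Further DESeq2 calls lower in OA, named after their values were seen, were Abca1, Ifngr1 and Acadm. Abca1, a cholesterol exporter, had 10.1, 6.76 and 13.0 CPM in OA libraries, against 46.0, 59.4 and 36.6 CPM in A libraries. Ifngr1, a chain of the interferon gamma receptor, had 43.8, 42.9 and 52.8 CPM in OA libraries, against 139.7, 89.6 and 102 CPM in A libraries. Acadm, an enzyme of fatty acid oxidation, had 61.2, 34.0 and 77.4 CPM in OA libraries, against 128, 130.0 and 145 CPM in A libraries. None of the 3 overlapped, with log2 fold changes of -2.25 ± 0.62 for Abca1 (DESeq2 adjusted p = 0.0296), -1.25 ± 0.28 for Ifngr1 (0.00975) and -1.22 ± 0.29 for Acadm (0.0255). Each call was lost without OA1, OA2 or A1; the values without OA2 were 0.15 for Abca1, 0.0561 for Ifngr1 and 0.0513 for Acadm. Abca1 and Acadm also lost the call without A2 (0.253 and 0.136) or A3 (0.0779 and 0.148).

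Markers of other cell types gave no call by edgeR or DESeq2. Of 4 tested blood cell markers, 3 had a lower mean in OA, where 7388 of all 13896 genes did. The summed level of the 11 blood markers in the table was 8.69 to 11.03 CPM in OA and 12.1 to 25.002 CPM in A libraries, without overlap. Ptprc, which defines white blood cells, was at 0 CPM in all 6 libraries. The endothelial markers summed to 9.78 to 13.0 CPM in OA and 5.92 to 15.7 CPM in A libraries, the Schwann and neural markers to 153 to 305 CPM and 150 to 213 CPM, and the skeletal muscle markers to 30.1 to 76.2 CPM and 20.2 to 76.2 CPM. At an unadjusted edgeR p under 0.05, 2.99% of all genes were higher and 2.29% lower. Of the 5 tested Schwann and neural markers, 2 were higher and 0 lower at that p. These were S100b, a calcium-binding protein of glia, at 2.61, 4.45 and 7.40 CPM in OA libraries against 0.699, 0.729 and 0.725 CPM in A libraries, and Tubb3, the tubulin of neurons, at 20.1, 26.6 and 84.9 CPM against 3.21, 19.7 and 4.92 CPM. Neither overlapped, and Mbp, a myelin protein, was lower in every OA library, at 1.17 to 1.72 CPM against 1.95 to 3.87 CPM. Most of the Schwann and neural sum came from Ncam1, an adhesion molecule, which overlapped at 119 to 209 CPM in OA and 141 to 202 CPM in A libraries. Smooth muscle contractile genes moved with OA2, at 25260.3 CPM in sum against 7304 CPM in OA1, 6818 CPM in OA3 and 8047 to 10591 CPM in the A libraries, and their median log2 fold change was 0.28 with OA2 and -0.70 without it. The part of these genes in the results was not tested. The 22 tested interferon response genes had a median of -0.73 (-1.29 without OA2, 0.19 without A2), with 20 lower in mean, where 7388 of all 13896 genes were. These 22 genes had no call by either tool and 0 members at an unadjusted edgeR p under 0.05 in either direction. Their median deviation from the mean of the 6 libraries was -0.27, 0.77 and -1.05 in OA1, OA2 and OA3, against -1.47, 1.69 and 0.58 in A1, A2 and A3, so the lower median rests on A2. For 12 glucocorticoid response genes and 14 p53 targets the medians were 0.19 (-0.12 without OA2) and -0.18 (-0.24 without OA2, 0.0046 without OA1), with no call by edgeR or DESeq2, 1 and 0 higher and 2 and 1 lower at an unadjusted edgeR p under 0.05.

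The comparison of tripotent libraries with the adipo-chondrogenic pool also adds osteogenic potential to adipogenic potential, and it shares no library with OA vs A. AC3 is a lone library, so its spread was assumed to be that of the other groups. In OAC vs AC edgeR called 0 genes, although 218 higher genes (1.57%) and 141 lower genes (1.01%) had an unadjusted p under 0.05 by edgeR. The DESeq2 test gave 10 higher calls (0.072%) and 3 lower calls (0.0216%). Of the 91 genes that DESeq2 called higher in OA vs A, 74 (81.3%) had a higher mean in OAC than in AC3, where 69.1% of all genes higher in OA did. Of the 39 called lower, 27 (69.2%) had a lower mean in OAC, where 63.5% of all genes lower in OA did. The fold changes of each comparison followed GC content, with a Spearman rho across 13364 genes of 0.34 in OA vs A and 0.51 in OAC vs AC. Without OA2 the rho in OA vs A was -0.09 across 13346 genes. With the correction for GC content the shares were 69 of 92 (75%) against 66.1% for higher genes and 22 of 38 (57.9%) against 58.4% for lower genes, so the lower genes were at the background.

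**Figure D4:**
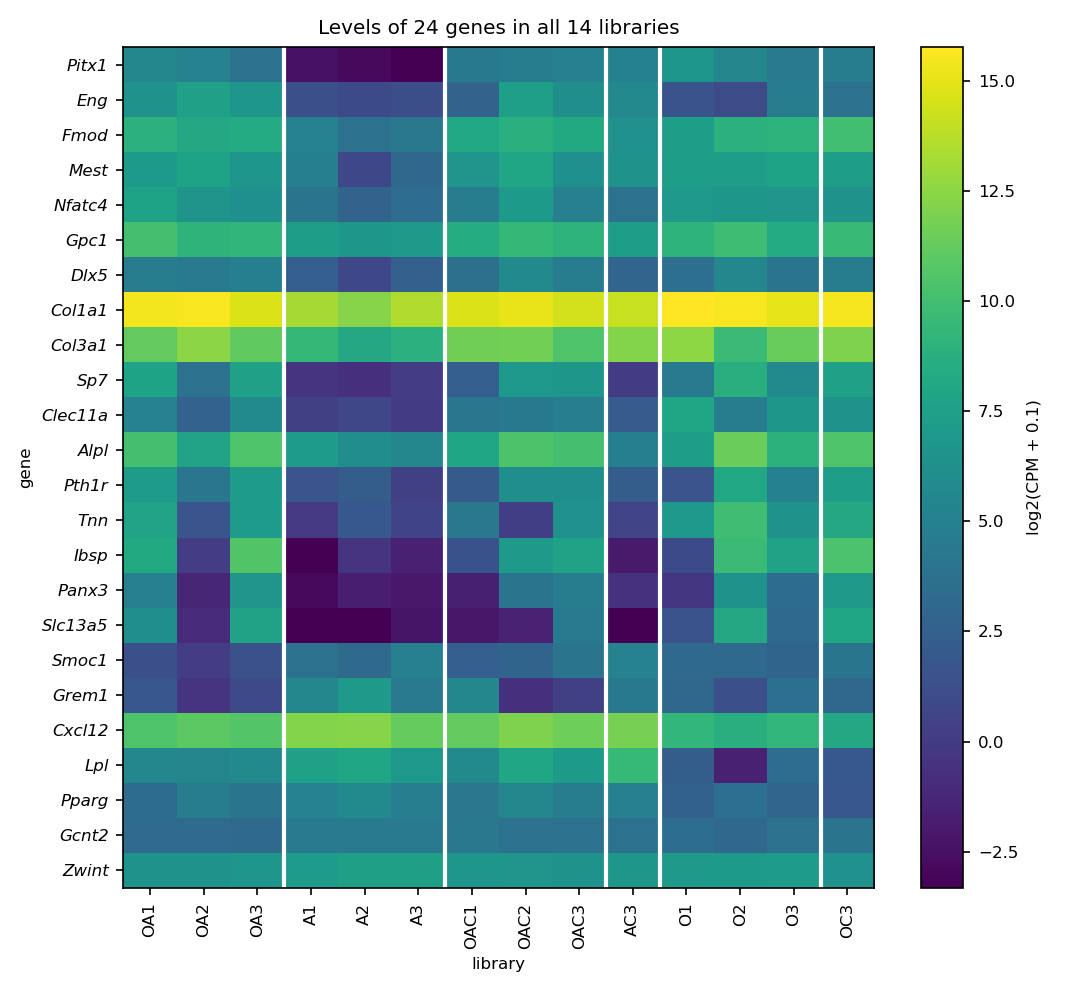
Levels of 24 genes in all 14 libraries as log2(CPM + 0.1), with libraries grouped by label. Sp7 is at 5.21 CPM or more in the 10 libraries with an osteogenic label and at 1.03 CPM or less in A1, A2, A3 and AC3, while Pitx1 is at 34.2 CPM in AC3.

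Sp7 was at 5.21, 114 and 109 CPM in OAC libraries, against 0.873 CPM in AC3, with a log2 fold change of 6.44 ± 2.68. Fmod was at 268, 449.6 and 308 CPM in OAC libraries, against 78.6 CPM in AC3 (2.12 ± 0.75), and Gpc1 at 353, 674 and 531 CPM against 164 CPM (1.67 ± 0.64). Each OAC library was above AC3 for these 3 genes. Ibsp was at 2.74, 125 and 208 CPM in OAC libraries, against 0.159 CPM in AC3, and OAC1 was the low library for Ibsp and Sp7. For Smoc1 the OAC libraries had 5.08, 7.10 and 16.3 CPM and AC3 34.9 CPM (-1.88 ± 0.72). Of the 18 genes named by the rule on DESeq2 calls, 15 had the same direction in OAC vs AC, and for 11 all OAC libraries lay beyond AC3 in that direction. All OAC libraries lay beyond AC3 in this way for 41.9% of all genes higher in OA and 40.3% of all genes lower. The other 7 of the 18 were Pitx1, Eng, Mest, Atp9a, Col1a2, Panx3 and Gcnt2. Pitx1 was higher in AC3 than in every OAC library, and for the rest AC3 lay within the OAC range. Eng was at 6.80, 171 and 72.7 CPM in OAC libraries and 51.1 CPM in AC3, and Mest at 101, 234 and 78.0 CPM and 88.6 CPM. Atp9a was at 1.72, 1.07 and 8.69 CPM in OAC libraries and 5.40 CPM in AC3 (-0.49 ± 1.22), Col1a2 at 11630, 23790 and 12913 CPM and 14115 CPM (0.19 ± 0.43), Panx3 at 0.221, 15.8 and 25.3 CPM and 0.556 CPM (4.62 ± 3.43), and Gcnt2 at 19.5, 13.6 and 14.7 CPM and 13.9 CPM (0.20 ± 0.36, against -1.26 in OA vs A). The fibrillar matrix list had a median of -0.22 in OAC vs AC, against 1.08 in OA vs A, and this difference was not tested. For Pitx1 the log2 fold change in OAC vs AC was -0.40 ± 0.81, and its difference from OA vs A was 9.87 ± 1.15 (edgeR FDR = 0.0668; DESeq2 adjusted p = 8.64e-10). It was 1 of 6 genes (0.0432%) whose difference between the comparisons was called by DESeq2; edgeR called 0, with 237 genes (1.71%) at an unadjusted p under 0.05. Across the 91 genes called higher in OA, AC3 was placed by the OA range first, since the OA and A ranges overlap for some genes. It lay within the range of the OA libraries for 22. For the others it lay within the A range for 19, between the ranges for 36, below the A libraries for 10 and above the OA libraries for 4. The 22 include Pgm5 (0 CPM in AC3, 0.0763 to 0.203 CPM in A libraries) and Tnfrsf19 (0.278, and 0.770 to 2.10 CPM). For both, AC3 was also below every A library. These places were not counted over all genes. The 10 libraries with an osteogenic label all lay above A1, A2, A3 and AC3 for 29 of the 91 genes, among them Sp7, Ibsp, Clec11a, Fmod, Nfatc4, Gpc1, Col1a1, Dlx5 and Alpl, and all lay below them for 10 of the 39. Over all 13896 genes 84 (0.604%) lay above in this way and 63 (0.453%) below. Since OA and A libraries are among those 14, these 2 counts describe the calls and are no further test of them.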

How the data were processed

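For 23331 genes and 14 libraries the authors deposited whole-number read counts, 1 column per library, from strand-specific oligo(dT) libraries per the labels' protocols. Per the submitters' processing notes, CASAVA 1.8.0, bedtools 2.11 and the mouse build mm9 were used; which aligner and strand setting is not given in the sources used here, so counts of overlapping or near-identical genes are uncertain, and 196 genes share a symbol. Total counts were 16888190 to 26076539.

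Libraries were grouped by label. The 13896 genes reaching 1 CPM in 3 or more of 14 libraries were tested in R 4.3.3 with edgeR 4.0.16 (quasi-likelihood F test, TMM, robust, 6 group means, 8 residual degrees of freedom, Benjamini-Hochberg FDR threshold 0.05), and with the Wald test of DESeq2 1.42.0, which gave 21 genes no adjusted p. CPM use TMM-adjusted library sizes, and SE was taken from the F statistic and the log2 fold change. On simulated counts of OA vs A (13896 genes), edgeR recovered 1, 20, 28 and 32 of 50 genes changed by 2-, 4-, 8- and 16-fold, with 2 of 83 calls unchanged genes; DESeq2 recovered 8, 32, 44 and 45, with 78 of 207. Counting intervals are exact at 95% and cover counting error only.

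The members and the 31 lists (463 genes, 444 in the table, 375 tested) were chosen with earlier results of these data known. Named genes were Pitx1, Eng, Ibsp and Smoc1; genes past the FDR; per direction up to 15 genes of greatest fold change called by DESeq2 in all libraries and without each OA or A library, with a mean of at least 5 CPM and no overlap (15 higher and 3 lower); 11 lineage genes; and the 5 members of each list with the lowest p. Predicted genes and genes sharing a symbol were passed over, and some of the named genes are not reported here. Alternatives were DESeq2, its size factors, other filters, only the 6 libraries, no pools, each library left out, a replicate block, and a correction for GC content (lowess span 0.3, mouse transcripts, 21018 genes or 90.1% with a value). Coordinates in mm9 are not used here.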

Additional observations from a re-analysis of the deposited data

Results flagged for a closer look

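The difference between the OA minus A and the OAC minus AC log2 fold changes was tested across all genes. Of 13896 genes edgeR called 0 (237 had an unadjusted p under 0.05), and 6 were called by DESeq2. Among these, 1 gene shares its symbol with another gene and is not described. AC3 is a lone pool, so each of these differences rests on its value.

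For Pitx1 the difference was 9.87 ± 1.15 (DESeq2 adjusted p = 8.639e-10; edgeR FDR = 0.0668). For Gda, which encodes guanine deaminase, it was 5.70 ± 1.27 (DESeq2 adjusted p = 0.0274; edgeR FDR = 1). Gda had 0.601, 0.536 and 1.12 CPM in OA libraries against 2.10, 0.973 and 0.611 CPM in A libraries, and 0.221, 0.126 and 0.118 CPM in OAC libraries against 13.6 CPM in AC3, so AC3 alone was high.

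For Etv4, an ETS transcription factor induced by FGF signalling, the difference was -3.10 ± 0.68 (DESeq2 adjusted p = 0.0105; edgeR FDR = 1). Etv4 had 12.7, 14.8 and 11.03 CPM in OA libraries against 22.0, 36.9 and 36.6 CPM in A libraries, and 19.4, 25.2 and 13.4 CPM in OAC libraries against 5.56 CPM in AC3. For Arhgef5, a guanine nucleotide exchange factor, the difference was -3.02 ± 0.62 (DESeq2 adjusted p = 0.00696; edgeR FDR = 1), with 34.3, 37.3 and 48.3 CPM in OA libraries against 54.7, 65.6 and 74.3 CPM in A libraries, and 79.6, 39.9 and 30.4 CPM in OAC libraries against 10.0 CPM in AC3. For Pitpnm2, a phosphatidylinositol transfer protein, it was -1.30 ± 0.32 (DESeq2 adjusted p = 0.0428; edgeR FDR = 1). In these 3 genes OA was below A while OAC was above AC3.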

How the results depend on the processing

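The edgeR count of 1 gene in OA vs A became 130 with DESeq2, 2 without the expression filter, 2 without OA2 and O1 (chosen after seeing the data), 0 with the 6 OA and A libraries alone, 0 without the pools, and 0 to 1 when each library was left out. With the replicate number as a block the edgeR count was 1, and with the block and GC correction 1. Correlations of same-numbered deviations were 0.30, 0.08 and 0.29, and each library correlated best with its own number. The main fits did not treat the numbers as pairs, and these correlations do not settle whether they are. Under the block DESeq2 called 180 genes, against 130 without it. The DESeq2 count of 130 was 71 to 185 when each library was left out and 220 without OA2 and O1. The OAC vs AC count of 0 became 13 with DESeq2. The count of 0 differences between the comparisons became 6 with DESeq2, 1 without the filter, 1 with GC correction and 1 with block and GC correction. The count of 1524 non-overlapping genes (11%) was 2325 to 4157 with a library left out, where fewer libraries make overlap rarer. Of 95 named genes, 4 turned direction: Fabp4 (-0.49; -0.85 to 0.0008 with a library left out, its upper end without OA2, and 0.0105 without OA2 and O1), Col2a1 (0.46; -0.86 without OA2, -0.85 without OA2 and O1, and up to 1.58 with another library left out), Vcam1 (-0.79; 0.37 with GC correction, 0.0316 with block and GC correction) and Cyp26a1 (3.68; -0.20 without OA1, and up to 4.26 with another library left out); the cause was not tested. Of 1504 gene alternatives 1450 kept direction and side of the FDR threshold. Pitx1 alone of the named genes passed it in the main fit, so for the others the side kept was that of no call. Of 31 list medians 13 kept their sign in all alternatives. Depth limits genes near 1 CPM, such as Ihh and Bglap.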
